A study of Mus musculus with 10 samples.

Results

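The genes described here are 10 genes of the circadian clock and its output, chosen by symbol from the deposited gene table: Arntl, Clock, Per1, Per2, Per3, Cry1, Cry2, Nr1d1, Nr1d2 and Dbp. They are 10 of the 55471 gene rows of the table. All 10 were counted well enough to be tested among 17101 genes, with between 203 counts (Cry1) and 3828 counts (Nr1d1) as the lowest and highest value of a library. The RNA came from the whole brain of 10 wild-type Swiss Webster mouse pups labelled neonatal day 5, each sequenced as 1 library, and all had undergone hypoxia-ischemia, an injury from loss of blood flow and oxygen. The pups numbered 6 to 10 were treated with allopregnanolone, a metabolite of progesterone that enhances the GABA-A receptor. The pups numbered 1 to 5 had the injury and no treatment. No uninjured pup was used here, and the labels used here give no time of day, dose, litter or vehicle. A difference in the hour of collection and a difference in treatment therefore cannot be told apart, which bears on every clock gene. It is also not stated whether day 5 dates the injury or the collection.

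In the mammalian clock, the proteins of Arntl (also called BMAL1) and Clock pair up and switch on genes that carry an E-box in their DNA, among them the Per and Cry genes, Nr1d1, Nr1d2 and Dbp. PER and CRY proteins return to the nucleus and block that pair, and the REV-ERB proteins of Nr1d1 and Nr1d2 silence Arntl through ROR elements, so that Arntl transcripts peak at about the opposite time of day to those of Nr1d1 and Dbp. The master clock sits in the suprachiasmatic nucleus of the hypothalamus, other brain regions hold clocks of their own, and in rodents the rhythms outside the master clock gain strength after birth.

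The comparison asked whether brains of treated and untreated pups differed in clock phase. Nr1d1 and Dbp were higher with allopregnanolone, 1.27-fold and 1.30-fold, and the other 8 genes did not pass. The test was the quasi-likelihood test of edgeR on the counts of all genes, with p adjusted over the 17101 genes tested (Benjamini-Hochberg) and a threshold of 0.05. Of the 10 genes, 2 were thus called higher and 0 lower. Over all 17101 genes tested, 6.61% were called higher and 4.65% lower. At an unadjusted p under 0.05, 5 of the 10 genes (Per1, Per3, Nr1d1, Nr1d2 and Dbp) were higher and 0 lower in edgeR, and over all genes tested 14.4% were higher and 13.1% lower at that level. Both limma-trend and DESeq2 called 2 higher and 0 lower. The median log2 fold change of the 10 genes was 0.11, with 8 of 10 above 0, against a median of -0.0046 over all genes, of which 49.2% were above 0. Both calls lay close to the threshold and were lost when single libraries were left out, as given with each gene.

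The promoter sequences show which of the known clock elements these genes carry next to their start sites. Of the 10 genes, 9 were found in the RefSeq promoter table for GRCm38.p6, which gives 250 bases before and 50 bases after each start site, and Per2 was not. The letters searched, on both strands, were CACGTG for the E-box, CACGTT for the E'-box, TTATGTAA or TTACGTAA for the D-box bound by DBP, TAGGTCA or TGGGTCA for the ROR element, TGACGTCA for the cAMP response element and ACANNNTGT for the core of a glucocorticoid element. No motif in this set contains another. Over 32851 promoter windows, the E-box was in 7.15%, the E'-box in 4.68%, the D-box in 1.06%, the ROR element in 6.45%, the cAMP element in 1.79% and the glucocorticoid core in 6.85%. The windows below are shown because each holds a clock element, and capitals mark the match. Nr1d1 (chr11:98775328-98775627, minus strand) holds an E'-box that begins at -28 from the start site, read as AACGTG. The first of the windows of Per1 (chr11:69098699-69098998, plus strand) holds an E-box at -166. Cry1 (chr10:85185005-85185304, minus strand) holds an E'-box at -79 and an E-box at -60. Per3 (chr4:151044616-151044915, minus strand) holds D-boxes at -205 and -158. The second window of Arntl (chr7:113207261-113207560, plus strand) holds a ROR element at 31 bases after the start, the kind of site through which REV-ERB proteins act. Tef, a relative of Dbp that was higher with allopregnanolone, holds an E-box at -127 in its first window (chr15:81802423-81802722, plus strand).
Nr1d1: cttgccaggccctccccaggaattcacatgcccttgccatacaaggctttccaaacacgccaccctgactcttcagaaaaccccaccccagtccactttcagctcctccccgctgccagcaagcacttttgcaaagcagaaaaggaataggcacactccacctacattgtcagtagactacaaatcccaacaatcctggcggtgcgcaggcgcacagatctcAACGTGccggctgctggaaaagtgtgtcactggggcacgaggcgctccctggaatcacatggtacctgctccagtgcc
Per1: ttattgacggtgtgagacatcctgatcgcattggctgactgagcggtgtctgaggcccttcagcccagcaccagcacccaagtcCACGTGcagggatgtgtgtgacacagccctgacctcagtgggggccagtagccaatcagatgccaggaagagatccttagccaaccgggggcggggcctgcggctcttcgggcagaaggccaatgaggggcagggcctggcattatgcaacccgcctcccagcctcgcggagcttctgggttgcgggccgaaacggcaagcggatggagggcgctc
Cry1: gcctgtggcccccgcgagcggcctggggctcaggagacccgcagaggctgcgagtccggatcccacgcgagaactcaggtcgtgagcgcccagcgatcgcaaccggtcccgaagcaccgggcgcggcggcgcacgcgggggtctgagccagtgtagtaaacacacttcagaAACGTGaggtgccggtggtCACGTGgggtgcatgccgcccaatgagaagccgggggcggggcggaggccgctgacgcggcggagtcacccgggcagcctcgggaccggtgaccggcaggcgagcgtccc
Per3: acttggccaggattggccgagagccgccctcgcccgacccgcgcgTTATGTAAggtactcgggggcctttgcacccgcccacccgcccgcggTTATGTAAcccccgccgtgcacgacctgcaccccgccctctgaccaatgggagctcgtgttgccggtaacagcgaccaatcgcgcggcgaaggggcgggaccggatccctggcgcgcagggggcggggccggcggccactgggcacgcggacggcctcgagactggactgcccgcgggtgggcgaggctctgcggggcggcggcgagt
Arntl: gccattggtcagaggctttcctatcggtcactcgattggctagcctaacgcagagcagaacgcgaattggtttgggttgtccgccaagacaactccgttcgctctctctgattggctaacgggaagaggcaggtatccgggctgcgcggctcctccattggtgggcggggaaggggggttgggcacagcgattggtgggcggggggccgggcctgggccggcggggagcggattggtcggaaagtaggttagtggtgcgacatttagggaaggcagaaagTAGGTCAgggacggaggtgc
Tef: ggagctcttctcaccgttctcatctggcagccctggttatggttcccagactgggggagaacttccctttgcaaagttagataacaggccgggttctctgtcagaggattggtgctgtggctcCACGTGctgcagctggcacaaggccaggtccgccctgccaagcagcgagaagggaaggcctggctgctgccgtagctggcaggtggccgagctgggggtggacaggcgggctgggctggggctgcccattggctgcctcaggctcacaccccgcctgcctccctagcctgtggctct

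Among the other windows, Cry2 held an E'-box at -166, and none of the searched letters was found in the windows of Dbp, Nr1d2 or Clock. Of the further clock genes called higher below, Bhlhe41 held an E-box at -153, the second window of Tef an E-box at -138 and Hlf a cAMP element at -9, and Usp2, Alas1 and Por held no match. Of the 2 called genes, Nr1d1 thus held a match in its window and Dbp did not. Elements farther from the start were not searched.

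**Figure D1:**
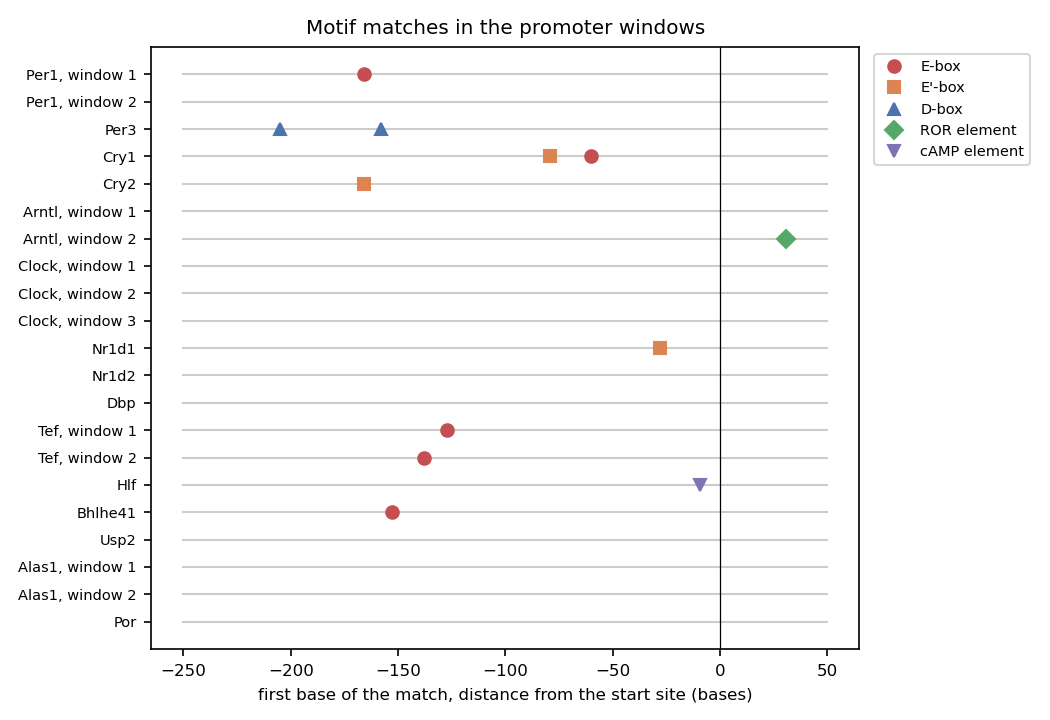
Positions of motif matches in promoter windows of the clock genes and of the further clock genes called higher (x axis: first base of the match as distance from the start site in bases; 1 line per window). Per3 is the only gene drawn with D-boxes, at -205 and -158, and the windows of Dbp, Nr1d2 and Clock hold no match.

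All 10 genes were expressed in every pup, with means from 3.08 to 32.7 on a scale that allows genes to be compared. Single libraries ran from 2.62 (Arntl) to 42.1 (Nr1d1). On that scale, CPM (counts scaled to a common library size) per kilobase of exon, the mean level over the 10 libraries was 32.7 for Nr1d1, 20.2 for Per1, 19.7 for Dbp, 17.7 for Cry2, 10.5 for Nr1d2, 5.67 for Clock, 4.61 for Per2, 3.87 for Cry1, 3.64 for Per3 and 3.08 for Arntl. Nr1d1 was above the next gene in that order in 10 of 10 libraries. Per1 and Dbp were not separated, with Per1 higher in 5 of 10 libraries, and Dbp was above Cry2 in 7 and Cry1 above Per3 in 8. The other neighbours kept their order in 10 of 10 libraries. The highest levels thus belonged to Nr1d1, Per1 and Dbp, and the lowest to Arntl, which encodes the partner of CLOCK.

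**Figure D2:**
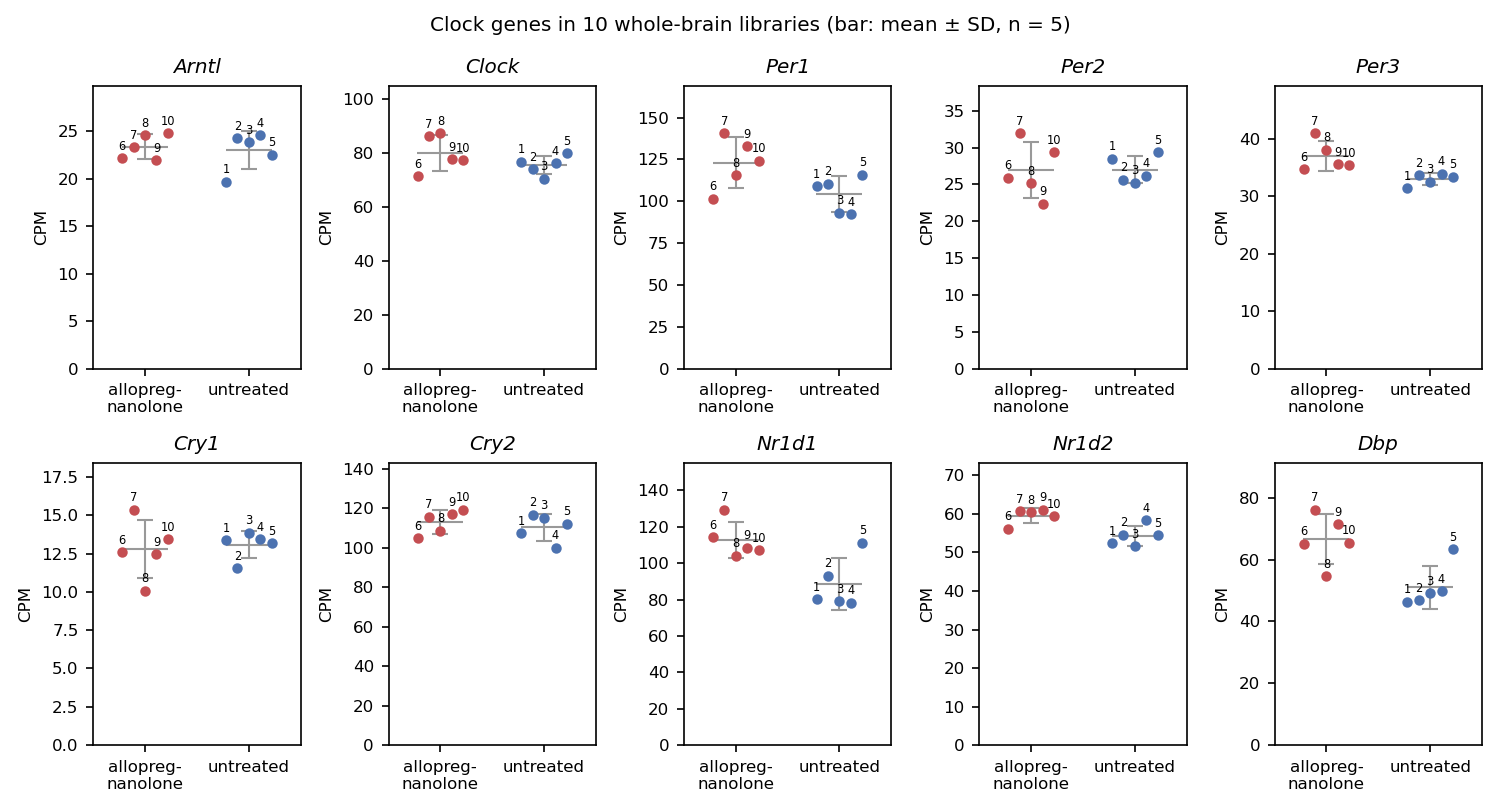
CPM of the 10 clock genes in each library (numbers are the pups; red, allopregnanolone; blue, untreated; grey bar, mean ± SD, n = 5). For Per3 the groups do not overlap, and for Dbp and Nr1d1 untreated pup 5, at 63.3 and 111 CPM, is the untreated library within the range of the treated ones.

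Of the activators, 0 of 2 passed the threshold in edgeR, also at an unadjusted p under 0.05. Arntl (chromosome 7, 113207465 to 113314126, GRCm38) had 22.2, 23.3, 24.5, 21.9 and 24.8 CPM in the allopregnanolone libraries 6 to 10, against 19.7, 24.3, 23.8, 24.5 and 22.5 CPM in the untreated libraries 1 to 5. The groups overlapped almost wholly, the lowest value being that of untreated pup 1. The fold change was 1.02 with a 95% interval of 0.912 to 1.13 (adjusted p = 0.876, edgeR). Clock (chromosome 5, 76209868 to 76304792), which encodes the partner of the Arntl protein, had 71.4, 86.3, 87.4, 77.8 and 77.4 CPM with allopregnanolone, against 76.8, 74.1, 70.5, 76.3 and 79.8 CPM without treatment. Allopregnanolone libraries 7 and 8 stood above all untreated ones and library 6 near the bottom. Its fold change was 1.06 (95% interval 0.968 to 1.16, adjusted p = 0.409, edgeR). Npas2, which can replace CLOCK, and Arntl2, the paralogue of Arntl, had fold changes of 1.02 and 0.941 and did not pass either.

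Of the Per and Cry genes, the negative arm of the loop, 0 of 5 passed the threshold, with Per1 and Per3 the nearest to it. Per1 (chromosome 11, 69095217 to 69109960), a Per gene that also responds quickly to hormones and neuronal activity, had 101, 141, 116, 133 and 124 CPM with allopregnanolone, against 109, 110.5, 93.2, 92.2 and 116 CPM without treatment. Allopregnanolone libraries 7, 9 and 10 were above all untreated libraries and library 6 was below 3 of them. The fold change was 1.18 (95% interval 1.03 to 1.35, log2 0.24, SE 0.089, adjusted p = 0.101, edgeR). Without allopregnanolone library 6 it passed, with a log2 fold change of 0.30 and an adjusted p = 0.0296 in edgeR, and in the other 21 of 22 alternatives it did not pass (adjusted p up to 0.999). With the mean of the myelin list as a covariate its log2 fold change was -0.0746.

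Per2 (chromosome 1, 91415982 to 91459324) had 25.9, 32.0, 25.2, 22.4 and 29.4 CPM with allopregnanolone, against 28.5, 25.6, 25.3, 26.2 and 29.4 CPM without treatment. The treated libraries 7 and 9 held both extremes, and the fold change was 0.997 (95% interval 0.874 to 1.14, adjusted p = 0.984, edgeR). Per3 (chromosome 4, 151003652 to 151044665), the Per gene least needed for the rhythm in mice, had 34.7, 41.0, 38.1, 35.5 and 35.4 CPM with allopregnanolone, against 31.4, 33.7, 32.6, 33.9 and 33.4 CPM without treatment. It was the only one of the 10 genes whose groups did not overlap, all 5 treated libraries being higher. Over all genes tested, 5.44% had groups that did not overlap with allopregnanolone higher, and 4.2% with allopregnanolone lower. The difference of Per3 was small, 1.12-fold (95% interval 1.03 to 1.22, log2 0.16, SE 0.057), and did not pass (adjusted p = 0.0796, edgeR).

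Cry1 (chromosome 10, 85131700 to 85185064), the stronger repressor of the Cry pair and a gene whose transcript peaks late in the cycle, had 12.6, 15.4, 10.1, 12.5 and 13.4 CPM with allopregnanolone, against 13.4, 11.6, 13.9, 13.4 and 13.2 CPM without treatment. Its spread was wider among treated libraries, and the fold change was 0.976 (95% interval 0.836 to 1.14, adjusted p = 0.866, edgeR). Cry2 (chromosome 2, 92403646 to 92434043) had 105, 116, 109, 117 and 119 CPM with allopregnanolone, against 107, 117, 115, 99.9 and 112 CPM without treatment. The ranges overlapped over most of their length, and the fold change was 1.03 (95% interval 0.944 to 1.11, adjusted p = 0.721, edgeR). The upper ends of the intervals of Per2, Cry1, Cry2 and Arntl lay between 1.11 and 1.14. The interval of Nr1d1, 1.11 to 1.47, overlapped each of these intervals, and the difference between genes was not tested.

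Of the REV-ERB genes, which encode the repressors of Arntl, 1 of 2 passed the threshold. Nr1d1 (REV-ERB alpha, chromosome 11, 98767932 to 98775333) had 114, 129, 104, 109 and 107 CPM with allopregnanolone, against 80.1, 93.1, 79.3, 78.2 and 111 CPM without treatment. Untreated pups 1 to 4 lay below every treated pup, and untreated pup 5 lay among the treated ones. Its mean was 113 ± 10.1 CPM with allopregnanolone and 88.4 ± 14.2 CPM without treatment (SD, n = 5 each), a fold change of 1.27 (95% interval 1.11 to 1.47, log2 0.35, SE 0.095, adjusted p = 0.0314, edgeR). The call was lost without allopregnanolone library 7 or untreated library 1, 3 or 4, with adjusted p = 0.0715, 0.0753, 0.0808 and 0.082 in edgeR, while the log2 fold change stayed between 0.29 and 0.31. Over all 22 alternatives its adjusted p ran from 0.00262 to 0.999. The exons of Nr1d1 share 263 bases, 8.55% of their length, with Thra on the opposite strand. Thra, the thyroid hormone receptor alpha gene, averaged 970.2 ± 45.4 CPM with allopregnanolone and 960.0 ± 52.3 CPM without treatment (SD, n = 5 each, adjusted p = 0.889, edgeR). With the strand setting of the counting not given in the sources used here, the origin of reads in the shared stretch is uncertain.

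Nr1d2 (REV-ERB beta, chromosome 14, 18204054 to 18239127) had 56.2, 60.7, 60.5, 61.1 and 59.4 CPM with allopregnanolone, against 52.4, 54.7, 51.6, 58.4 and 54.4 CPM without treatment. Treated libraries 7 to 10 were above all untreated ones, and treated library 6 was below untreated library 4. The fold change of 1.10 (95% interval 1.02 to 1.18) did not pass (adjusted p = 0.0888, edgeR). The ROR genes, which compete with the REV-ERBs for the same DNA and activate Arntl, did not pass either. Rora had a fold change of 1.30 with a wide interval of 1.03 to 1.63 (adjusted p = 0.127), and Rorb one of 0.989 (adjusted p = 0.959, both edgeR).

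Dbp is a transcription factor that relays the clock to output genes through D-boxes. It was set beside the 3 D-box factors of the wider list given below, Tef, Hlf and Nfil3. Of these 4 genes 3 were called higher, where 6.61% of all genes tested were called higher and 4.65% lower. Dbp (chromosome 7, 45705088 to 45710203) had 65.2, 76.2, 54.5, 71.5 and 65.4 CPM with allopregnanolone, against 46.4, 46.8, 49.2, 49.7 and 63.3 CPM without treatment. All treated libraries but library 8 lay above every untreated one, and untreated pup 5 stood apart from the other 4. Its mean was 66.6 ± 8.14 CPM with allopregnanolone and 51.1 ± 7.00 CPM without treatment (SD, n = 5 each), a fold change of 1.30 (95% interval 1.13 to 1.51, log2 0.38, SE 0.097, adjusted p = 0.0241, edgeR). The call was lost without allopregnanolone library 7 or 9, or without untreated library 1, 2, 3 or 4, with adjusted p between 0.0505 (untreated 2) and 0.0611 (untreated 4) in edgeR and a log2 fold change between 0.33 and 0.37. Without untreated library 5 the log2 fold change was 0.47 (adjusted p = 0.00347, edgeR), and over all 22 alternatives the adjusted p ran from 0.00333 to 0.999. The exons of Dbp share 539 bases, 18.0% of their length, with Sphk2 on the opposite strand, a sphingosine kinase gene at 40.0 ± 3.47 CPM with allopregnanolone and 38.8 ± 2.54 CPM without treatment (SD, n = 5 each, adjusted p = 0.717, edgeR).

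Tef and Hlf, the closest relatives of Dbp, bind the same D-box and were both higher. Hlf had 112, 172, 132, 147 and 136 CPM with allopregnanolone, against 85.3, 89.4, 79.2, 89.7 and 117 CPM without treatment. Untreated pup 5 again overlapped the treated range and the other 4 untreated pups did not. The fold change was 1.51 (95% interval 1.28 to 1.80, log2 0.60, SE 0.11, adjusted p = 0.00668, edgeR). Tef had 183, 212, 216, 227 and 210.3 CPM with allopregnanolone, against 172, 161, 169, 161 and 173 CPM without treatment, with no overlap, and its fold change was 1.25 (95% interval 1.15 to 1.36, log2 0.33, SE 0.057, adjusted p = 0.00389, edgeR). Nfil3, which represses through the D-box and peaks opposite to Dbp, had a fold change of 0.950 (95% interval 0.819 to 1.10, adjusted p = 0.678). The calls of Tef and Hlf remained with each of the 10 libraries left out in turn. They were lost without untreated libraries 1 to 3 together, which keeps only untreated libraries 4 and 5 (adjusted p = 0.117 and 0.204, edgeR). They were also lost with the mean of the myelin, midbrain or glucocorticoid list as a covariate. The log2 fold change of Tef was then 0.33, 0.41 and 0.10 (adjusted p = 0.939, 0.0786 and 0.698, edgeR).

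A wider list of 28 clock genes, written from textbook knowledge by role, gave the rest of the pathway. Of its 27 genes tested, 6 were higher and 0 lower, and 10 were higher and 0 lower at an unadjusted p under 0.05 in edgeR, a level at which 14.4% of all genes were higher and 13.1% lower. The median log2 fold change of the 27 was 0.03, with 16 of 27 above 0, and 3 of 27 (Tef, Alas1 and Por) had groups that did not overlap. Over all genes tested, 6.61% were called higher and 4.65% lower. Groups did not overlap for 5.44% with allopregnanolone higher and for 4.2% with it lower. By role, 2 of 3 D-box factors, 1 of 9 tested loop components, 1 of 9 regulators of PER and CRY turnover and 2 of 6 outputs were higher. The higher loop component was Bhlhe41 (DEC2), a repressor of E-box genes, at 39.0, 29.9, 25.9, 32.0 and 32.1 CPM with allopregnanolone, against 24.7, 24.6, 22.8, 24.2 and 26.7 CPM without treatment. Only treated library 8 fell within the untreated range, and the fold change was 1.30 (log2 0.37, SE 0.092, adjusted p = 0.0206, edgeR). Alas1, the rate-limiting enzyme of haem synthesis and a known clock output in liver, had 71.5, 72.3, 73.6, 75.4 and 73.6 CPM with allopregnanolone, against 59.3, 61.8, 56.9, 57.5 and 65.1 CPM without treatment. The groups did not overlap, and the fold change was 1.22 (95% interval 1.14 to 1.31, log2 0.29, SE 0.048, adjusted p = 0.00323, edgeR). Por, the reductase that feeds electrons to cytochrome P450 enzymes, was 85.0 to 94.2 CPM with allopregnanolone and 69.0 to 84.7 CPM without treatment (1.17-fold, adjusted p = 0.0273, edgeR). Usp2, a deubiquitinase of clock proteins, was 51.7 to 63.3 CPM with allopregnanolone and 44.5 to 54.0 CPM without treatment (1.18-fold, adjusted p = 0.038, edgeR).

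The last calls depended on single libraries. Bhlhe41 was lost without untreated library 3 or 4 (adjusted p = 0.0575 and 0.0519, edgeR). Por was lost without allopregnanolone library 7 or 10 or untreated library 1, 3 or 4 (adjusted p between 0.0537 and 0.0732), and Usp2 without allopregnanolone library 7, 9 or 10 or untreated library 1, 2, 3 or 4 (between 0.0577 and 0.0996). Over the 22 alternatives the adjusted p of these 3 genes ran from 0.00336, 0.00672 and 0.0157 up to 0.999 each. Alas1 was called with each library left out. The count of 6 was 3 without untreated library 3 and 3 without untreated library 4. The genes that did not pass included Npas2, Arntl2, Rora, Rorb, Bhlhe40, Ciart, Cipc, Timeless, Nfil3, Csnk1d, Csnk1e, Csnk1a1, Gsk3b, Fbxl21, Btrc, Fbxw11, Wee1, Nampt, Prok2 and Avp. Among them, the kinase genes Csnk1d, Csnk1e, Csnk1a1 and Gsk3b, which mark PER and CRY for breakdown, had fold changes between 0.940 (Gsk3b) and 1.04 (Csnk1d). Ciart, an E-box-driven repressor of the CLOCK complex, and Wee1, a cell cycle kinase under clock control in liver, were at 1.32 and 1.26 (adjusted p = 0.14 and 0.0906, edgeR).

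**Figure D3:**
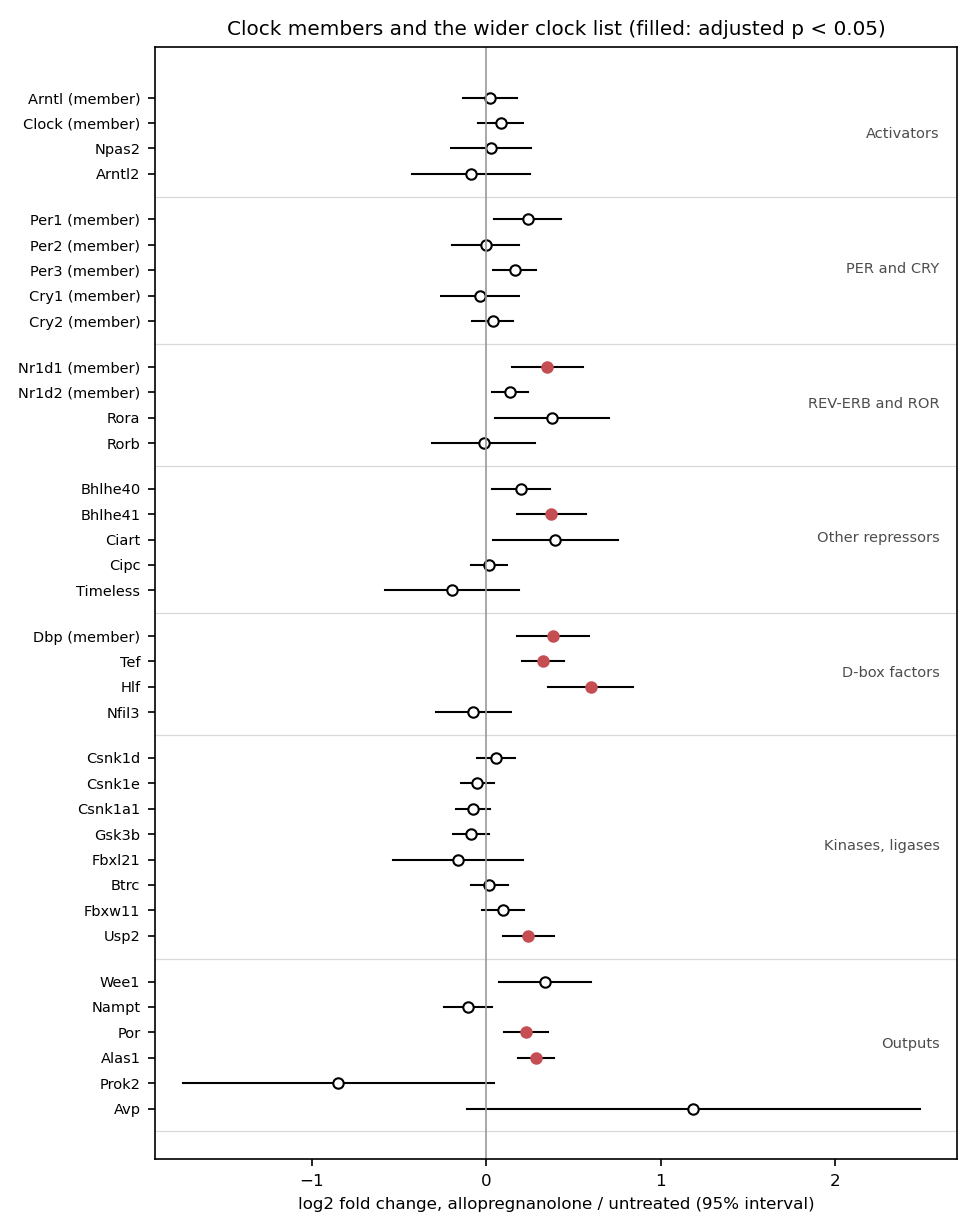
Log2 fold change, allopregnanolone over untreated, of the 10 clock genes (marked as members) and of tested genes of the wider list, with 95% intervals and grouped by role (filled, adjusted p under 0.05). The called genes run from 0.23 (Por) to 0.60 (Hlf), and Arntl, Clock, Per2, Cry1 and Cry2 lie near 0.

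The balance between clock genes was read within each library. Arntl peaks at about the opposite time of day to Nr1d1 and Dbp, and its level was set under those of Nr1d1, Dbp and Per1. Per1 was also set over Per2, a gene of the same arm that peaks within hours of it. These ratios are descriptions and were given no test. The log2 ratio of Nr1d1 to Arntl CPM was 2.37, 2.47, 2.09, 2.31 and 2.11 in allopregnanolone libraries 6 to 10, against 2.03, 1.94, 1.73, 1.67 and 2.31 in untreated libraries 1 to 5. The means were 2.27 ± 0.17 with allopregnanolone and 1.94 ± 0.25 without treatment (SD, n = 5 each), a difference of 0.33. Untreated pup 5 had a ratio within the treated range, and 3 of 5 treated libraries were above all untreated ones. The log2 ratio of Dbp to Arntl was 1.56, 1.71, 1.15, 1.71 and 1.40 with allopregnanolone, against 1.24, 0.95, 1.05, 1.02 and 1.49 without treatment. Its means were 1.50 ± 0.23 with allopregnanolone and 1.15 ± 0.22 without treatment (SD, n = 5 each), a difference of 0.36. The ratio of Per1 to Arntl averaged 2.39 ± 0.20 with allopregnanolone and 2.18 ± 0.24 without treatment, and that of Per1 to Per2 averaged 2.19 ± 0.23 with allopregnanolone and 1.94 ± 0.11 without treatment (SD, n = 5 each). The ranges of the groups overlapped for all 4 ratios. The fold changes of the denominators were 1.02 for Arntl and 0.997 for Per2. With no hour of collection, a position in the cycle was not assigned to any pup.

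**Figure D4:**
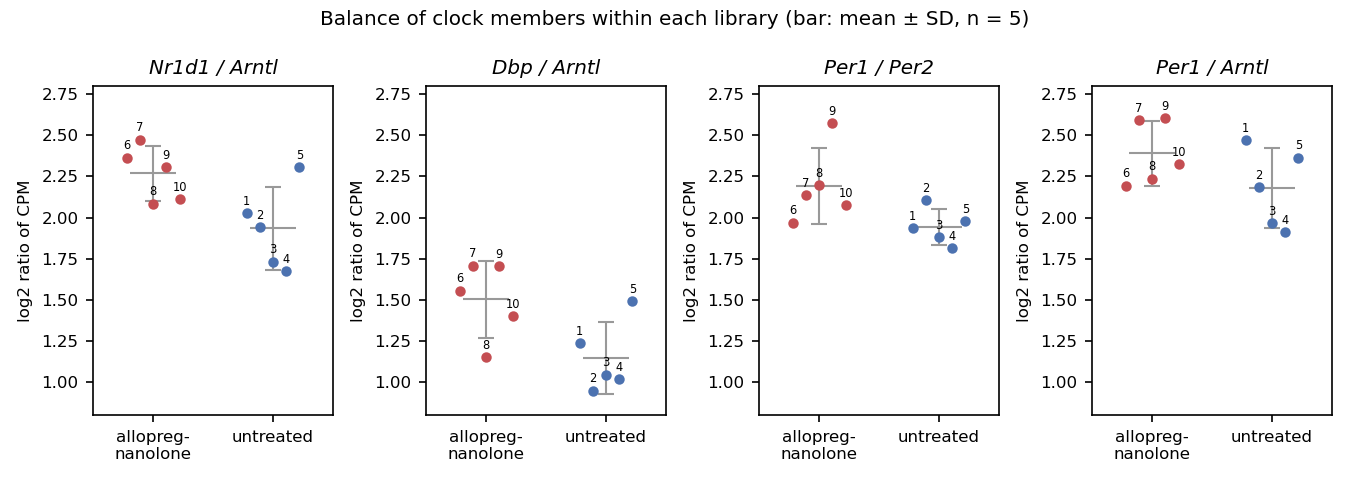
Log2 ratios of CPM between clock genes in each library (numbers are the pups; red, allopregnanolone; blue, untreated; grey bar, mean ± SD, n = 5). The Nr1d1 to Arntl ratio runs from 2.09 to 2.47 with allopregnanolone and from 1.67 to 2.31 without treatment, with untreated pup 5 at the top of its group.

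Within the groups, the order of the pups differed between genes. For every called gene, of the 10 and of the wider list, untreated pup 5 was however the highest of its group. Among treated pups, pup 7 had the highest value for 6 of the 10 genes and pup 6 the lowest for 5. Among untreated pups, pup 5 had the highest value for 5 of the 10 genes and the lowest for 0. With the 6 called genes of the wider list added, pup 5 was highest of its group for 11 of 16 genes and pup 7 for 9 of 16. After the group means were taken out, the genes whose log2 CPM followed Nr1d1 most closely over the 10 libraries, among 11221 named protein-coding genes with at least 5 CPM, were Tmem259 (Pearson r 0.98), Rab1b (0.98) and Wipf2 (0.97). Those for Dbp were Pkd1 (0.96), Nptx2 (0.94) and Ece1 (0.92), those for Arntl Xrcc6 (0.93), Megf9 (0.92) and Grcc10 (0.91), and those for Clock Fcf1 (0.95), Fam160a2 (0.94) and Bmpr2 (0.93). The r between Nr1d1 and Dbp themselves was 0.75, and between Nr1d1 and Arntl -0.06. These values describe 10 libraries that share depth and composition effects, and they were given no test.

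Other gene lists moved with the groups, and their values stand beside the clock calls. Glucocorticoid-responsive genes, of which 9 of 14 were higher and 0 lower, summed to 482 to 723 CPM with allopregnanolone and 426 to 477 CPM without treatment. They include Fkbp5 and Tsc22d3, and Klf9, a hormone-induced repressor that is itself a clock output (1.30-fold, adjusted p = 0.0308, edgeR). Myelin genes, of which 10 of 10 were higher, summed to 6005 to 8113 CPM with allopregnanolone and 2027 to 3905 CPM without treatment. Midbrain dopamine genes summed to 14.9 to 92.5 CPM with allopregnanolone and 9.72 to 18.7 CPM without treatment, with 5 of 5 tested genes higher, and were highest in treated pups 6, 7 and 9 at 92.5, 77.4 and 55.9 CPM. Astrocyte genes summed to 3677 to 4145 CPM with allopregnanolone and 3002 to 3689 CPM without treatment (5 of 10 higher, 0 lower), and endothelial genes to 178 to 199 CPM with allopregnanolone and 140.5 to 155 CPM without treatment (3 of 6 higher, 0 lower). Genes induced by neuronal activity and CREB summed to 454 to 749 CPM with allopregnanolone and 440 to 707 CPM without treatment, and 0 of 10 passed in edgeR. Untreated pup 5, whose Nr1d1, Dbp and Hlf were near the treated ones, had the highest myelin sum (3905 CPM) of its group. It also had the highest sum of activity and CREB genes of its group (707 CPM). At 477 CPM, its glucocorticoid sum was also the highest of its group, with untreated pup 2 next at 475 CPM. The astrocyte and midbrain sums of untreated pup 5, 3042 and 10.1 CPM, were each the second lowest of its group. Treated pup 7, highest of its group for 6 of the 10 clock genes, had the highest activity and CREB sum of its group (749 CPM). Treated pup 6, lowest of its group for 5 of the 10, had the highest myelin sum of its group (8113 CPM). It also had the lowest glucocorticoid sum (482 CPM) and the lowest activity and CREB sum (454 CPM) of its group. The glucocorticoid sum of treated pup 7, 605 CPM, lay below those of treated pups 8, 9 and 10. These values of single pups were not tested. In bulk samples of this kind, fewer cells of a type and less RNA per cell cannot be told apart.

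The suprachiasmatic nucleus is a small part of a whole brain, and its markers differed widely in level. The list summed to 36.9 to 52.7 CPM with allopregnanolone and 25.8 to 43.3 CPM without treatment, and 1 of 6 tested genes was higher, Lhx1, and 0 lower. The highest were Rgs16 and Vip, at 14.8 and 12.6 CPM with allopregnanolone and 13.6 and 10.5 CPM without treatment. The defining markers Six6 and Nms were at 0.242 and 0.0566 CPM with allopregnanolone and 0.198 and 0.0754 CPM without treatment, too low to be tested. Neuronal genes summed to 7003 to 8104 CPM with allopregnanolone and 6865 to 7694 CPM without treatment (2 of 8 higher, 3 lower), and microglial genes to 230 to 247 CPM with allopregnanolone and 224 to 296 CPM without treatment (1 of 6 higher). The red blood cell list came to 975 to 1571 CPM with allopregnanolone and 598 to 1468 CPM without treatment (1 of 6 higher), and choroid plexus genes to 341 to 917 CPM with allopregnanolone and 105 to 847 CPM without treatment (0 of 5 in edgeR).

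With the mean of the myelin list, the midbrain list or the glucocorticoid list added to the model, 0 of the 10 clock genes passed. Most calls among all 17101 genes were lost as well. With no covariate 1131 genes were higher and 795 lower. With the myelin mean 0 passed, with the midbrain mean 55 were higher and 17 lower, and with the glucocorticoid mean 237 and 98. These covariates differ between the groups, and the standard errors of Nr1d1 and Dbp were wider with them. The log2 fold change of Nr1d1 was -0.066 with the myelin mean, 0.19 with the midbrain mean and 0.62 with the glucocorticoid mean (adjusted p = 0.999, 0.66 and 0.151, edgeR). That of Dbp was 0.18, 0.26 and 0.52 with the same 3 covariates (adjusted p = 0.999, 0.567 and 0.25). Untreated pups 1 to 3 carry another prefix in their library names, and without them Nr1d1 was at 0.25 and Dbp at 0.23 (adjusted p = 0.37 and 0.404). That fit keeps only pups 4 and 5 of the untreated group, and pup 5 had the highest Nr1d1 and Dbp of that group. The name prefix, the smaller group and the weight of pup 5 cannot be told apart there. Of the 6 called genes of the wider list 0 passed in any of these 4 fits, in which Hlf was at 0.32, 0.56, 0.55 and 0.43 with the myelin, midbrain and glucocorticoid means and without pups 1 to 3. Beyond these values, the part of these lists and of the name prefix in the clock calls was not tested.

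**Figure D5:**
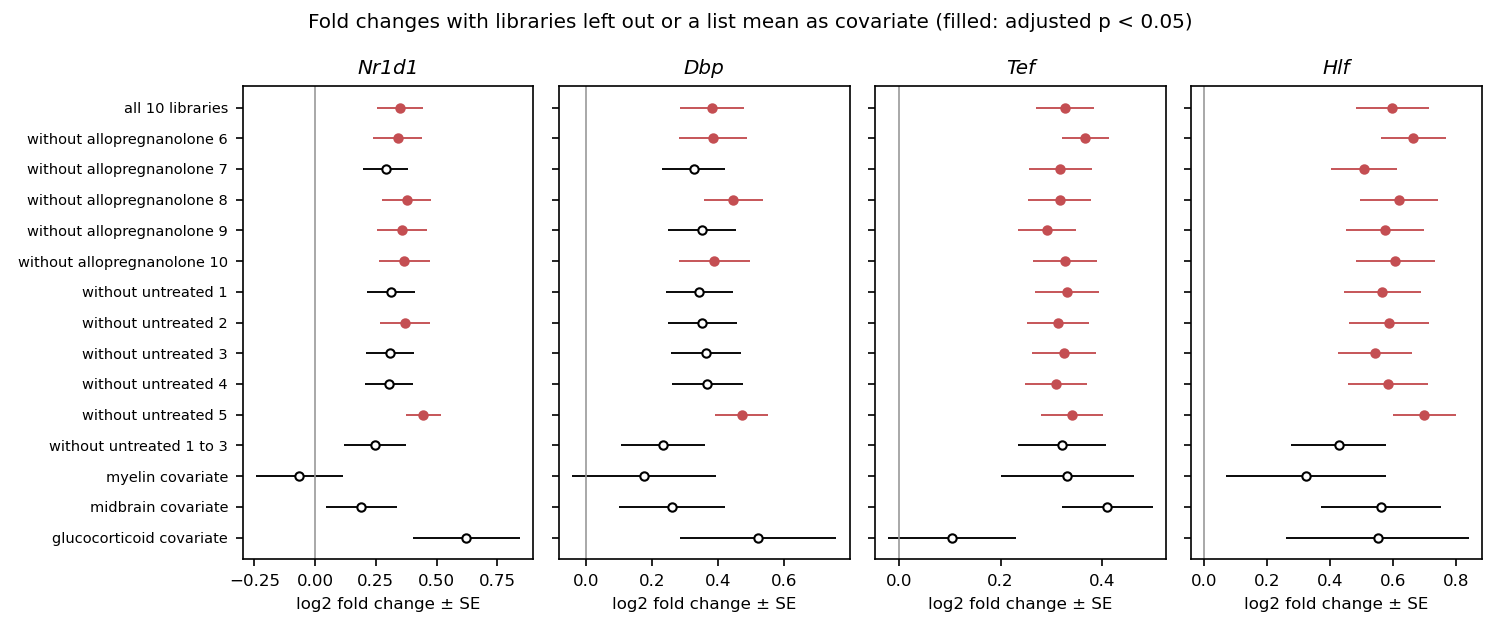
Log2 fold change ± SE of Nr1d1, Dbp, Tef and Hlf, allopregnanolone over untreated, with all 10 libraries, with libraries left out and with the mean of a gene list as covariate (filled, adjusted p under 0.05). Nr1d1 and Dbp lose their call with several single libraries left out, Tef and Hlf only in the last 4 fits, and Nr1d1 lies at -0.066 with the myelin covariate.

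Across the series, library totals were 18656836 to 34270723 estimated counts, with treated pup 6 the deepest, and mitochondrial transcripts took 8.53% to 9.76% with allopregnanolone and 7.98% to 9.74% without treatment. The lowest shares, 8.31%, 8.08% and 7.98%, were those of untreated pups 1 to 3, the libraries of the other name prefix. Without untreated library 3 the count of all genes called higher was 645 in place of 1131, without untreated library 4 it was 649 and without untreated library 1 it was 716.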

How the data were processed

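Whole-brain RNA of 10 pups, isolated with the RNeasy Mini Plus kit, was made into libraries with the directional NEBNext Ultra II kit, per the labels' protocols. The submitters' processing notes name Partek and mm10. Aligner, counting program, annotation and strand setting were not given in the sources used here. The table as deposited by the authors holds expected counts (estimated counts) for 55471 genes. Its name calls them normalized, but 86.8% to 87.6% of nonzero values were whole and library totals differed, so they were rounded and treated as counts before normalization. No column was left out.

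Gene names and coordinates came from GENCODE M21 (GRCm38), with 55230 identifiers found and 241 not, and promoter windows from RefSeq. Genes with at least 10 counts in 5 of the 10 libraries were kept (17101 genes, 99.9% of counts), scaled by TMM (factors 0.953 to 1.04) and compared by a two-sided quasi-likelihood test (edgeR 4.0.16, R 4.3.3), treated over untreated with no covariate. A gene was called at a Benjamini-Hochberg adjusted p below 0.05 over the genes kept. The standard error is the size of the log2 fold change over the root of F. CPM use the TMM scaling. The precision of a value is set by its count and by the spread between pups, which were treated as separate animals. Between libraries of a group, log2 CPM correlated at 0.98 to 0.987, and chi-square per degree of freedom was 5.55 to 20, so no library repeats another.

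All 10 clock genes are named. Of the wider list every gene past the threshold is given with values, and for Arntl, Clock, Nr1d1 and Dbp the 3 genes most alike. Some genes that did not pass or were not tested are not reported here. The clock genes, lists, motifs and tests were chosen with earlier results of these data known. The alternatives were limma-trend (limma 3.58.1, prior count 1), DESeq2 1.42.0, other scalings and filters, each library left out, untreated libraries 1 to 3 (another name prefix) left out, thinning to 18656827 counts, and the mean of the myelin, midbrain or glucocorticoid list as a covariate, the last chosen after seeing the data. Figures were drawn with matplotlib 3.10.9.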

Additional observations from a re-analysis of the deposited data

Results flagged for a closer look

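Untreated pup 5 stood apart from the rest of its group in 2 of the 40 sets of 5 libraries examined, each being 1 of 20 clock measures in 1 group. Its Dbp was 63.3 CPM, against 49.7 CPM in the next untreated library and 46.4 CPM in the lowest. The gap was 0.804 of the whole range, above Dixon's critical value of 0.71 for 5 samples. Its Hlf was 117 CPM, against 89.7 CPM in the next untreated library and 79.2 CPM in the lowest, a gap of 0.722 of the range. Chance alone marks about 1 in 20 such sets where the sets are separate. These sets share the same pups, so that share cannot judge the 2 flags. With this pup left out, the log2 fold change of Dbp was 0.47 in place of 0.38, and that of Hlf 0.70 in place of 0.60, allopregnanolone over untreated.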

How the results depend on the processing

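Under limma-trend, DESeq2, the scalings, both count filters and thinning, 2 clock genes were called higher and 0 lower. Library totals alone gave 783 genes higher and 1451 lower in place of 1131 and 795, with the median of all genes at -0.06 (log2), and 1 lower gene in the wider list, Gsk3b. With each library left out in turn, 645 to 1360 genes were higher and 435 to 983 lower, 0 to 3 clock genes were higher and 3 to 7 wider genes. Without the 3 libraries of the other name prefix, only untreated libraries 4 and 5 stood for their group. In that fit 80 genes were higher and 25 lower, with 0 clock and 0 wider genes higher. At an unadjusted p under 0.05 in edgeR, 0 clock and 6 wider genes were higher, and 1448 of all 16469 genes. With the myelin covariate 0 genes passed in edgeR in either direction (389 higher and 474 lower at an unadjusted p under 0.05), 0 clock and 0 wider genes among them, and the fold change turned for the called genes Nr1d1 (log2 -0.0658) and Por (-0.01), and for Per1 (-0.0746) and Cry1 (0.0701), which were not called. With the midbrain covariate 55 genes were higher and 17 lower, and with the glucocorticoid covariate 237 and 98, with 0 clock and 0 wider genes called in either (0 and 2 clock genes and 4 and 2 wider genes higher at an unadjusted p under 0.05 in edgeR, where 1053 and 1786 of all 17101 genes were higher). The cause of these losses was not tested. The log2 ratios kept their sign with 1 CPM added or any library left out. Of 22 alternatives, Nr1d1 missed the threshold in 8 and Dbp in 10. No paired analysis was possible because the pups of the groups share no number.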
